A study of Mus musculus with 16 samples.

Results

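Pancreatic islets are clusters of hormone-secreting cells that lie in the exocrine pancreas, so an islet preparation also holds blood vessel cells and can carry along pieces of duct, acinar tissue and immune cells. The genes examined here are 3 markers of pancreatic duct cells (Sox9, Krt19 and Spp1) and 5 markers of the endothelial cells that line the islet capillaries (Pecam1, Kdr, Cdh5, Tek and Plvap), 8 genes of the 20780 protein-coding genes on chromosomes 1 to 19. They were fixed by name as a readout of non-endocrine cells in each sample. Their accessible regions were found by merging overlapping or touching peaks of the 16 sample lists and keeping each merged region that overlapped the gene body or the 3 kb upstream of it. This gave 46 regions of the 347712 in all, 9 at the duct genes and 37 at the endothelial genes.

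Accessible chromatin was measured by ATAC-seq, in which a transposase inserts adapters into open DNA. The samples were islets of 8 inbred strains, labelled CAST_EiJ (called CAST below), PWK_PhJ (PWK), WSB_EiJ (WSB), 129S1_SvImJ (129), A_J (AJ), C57BL/6J (B6), NOD_ShiLtJ (NOD) and NZO_HlLtJ (NZO). Each strain gave 1 female and 1 male sample, 16 in all, with no treatment in the labels and no age in the sources used here. The text of the study calls CAST, PWK and WSB wild-derived, and the other 5 strains are called classical here. A sample was made from a selection of average sized islets and not from sorted cells, so the 2 samples of a strain differ in sex and measure no spread within a sex.

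Ductal epithelium is set up by the transcription factor SOX9, is built on keratins such as keratin 19, and secretes osteopontin, the product of Spp1. Islet capillaries are fenestrated: PECAM1 and VE-cadherin (Cdh5) join endothelial cells to each other, VEGFR2 (Kdr) receives the VEGF-A that beta cells secrete, TIE2 (Tek) is the receptor of the angiopoietins, and PLVAP forms the diaphragms of the fenestrae. Osteopontin and TIE2 have also been found outside these cell types, in macrophages among others.

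Of the 46 regions, 3 had a peak in every sample (6.52%, against 11.8% of all regions). They lay 2.02 kb upstream of Spp1 (all distances are from the region centre to the gene start), in an intron of Pecam1 and in an intron of Tek, and their sequences are shown because the between-strain comparisons of single regions rest on them. Each run is 200 bases around the median position, over the 16 samples, of the summit of the strongest peak of each sample. It was read from the GRCm38.p6 reference (the mm10 build of the peak lists), 5′ to 3′ on the strand of its gene. The 20 bases at that median position are in capitals. None of these windows overlaps an exon.
Spp1 upstream, chr5:104432991-104433190, plus strand: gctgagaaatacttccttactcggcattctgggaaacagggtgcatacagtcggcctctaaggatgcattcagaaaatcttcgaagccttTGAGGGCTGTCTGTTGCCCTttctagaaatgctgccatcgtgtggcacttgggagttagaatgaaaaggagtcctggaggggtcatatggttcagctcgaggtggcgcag
Pecam1 intron, chr11:106674772-106674971, minus strand: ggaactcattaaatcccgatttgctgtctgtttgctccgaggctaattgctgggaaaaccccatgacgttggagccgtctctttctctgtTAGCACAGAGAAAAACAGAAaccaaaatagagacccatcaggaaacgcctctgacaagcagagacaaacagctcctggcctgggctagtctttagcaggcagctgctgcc
Tek intron, chr4:94752624-94752823, plus strand: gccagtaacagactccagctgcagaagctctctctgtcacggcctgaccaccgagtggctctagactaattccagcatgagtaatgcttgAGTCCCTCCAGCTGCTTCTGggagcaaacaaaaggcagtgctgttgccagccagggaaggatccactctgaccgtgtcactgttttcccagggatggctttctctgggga

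These windows held 50.5%, 50% and 55% G and C and 6, 5 and 3 CpG pairs, where the median of the 40934 windows of the same kind at regions called in every sample was 50% and 3. Searched on both strands, none of them held 6 short motifs, whose letters were found in 6.30% to 18.96% of the 40934 windows. For the ETS family of factors, which includes regulators of endothelial genes, the letters searched were CAGGAAG, found in 8.87% of the windows. For the GATA family they were AGATAA (8.32%), and for the SOX family, to which SOX9 belongs, they were ACAATG (9.24%). For the FOXA factors of duct and endocrine cells they were TGTTTAC (6.30%). For the islet factor NEUROD1 they were CAGATGG (7.87%), and for the insulator protein CTCF they were CCANNAGNG (18.96%). The absence says only that these letters are not in these windows.

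RefSeq promoters (GRCm38.p6) were at hand for 3 of the 8 genes, Spp1, Kdr and Tek. The last 200 bases before the annotated start are shown for the regions at the start sites described below, 5′ to 3′ with the 20 bases next to the start in capitals.
Kdr, chr5:75978456-75978655, minus strand: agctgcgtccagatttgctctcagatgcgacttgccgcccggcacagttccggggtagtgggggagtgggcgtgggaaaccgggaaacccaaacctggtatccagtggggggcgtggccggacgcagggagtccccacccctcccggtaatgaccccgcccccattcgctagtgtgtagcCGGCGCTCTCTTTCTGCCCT
Tek, chr4:94739089-94739288, plus strand: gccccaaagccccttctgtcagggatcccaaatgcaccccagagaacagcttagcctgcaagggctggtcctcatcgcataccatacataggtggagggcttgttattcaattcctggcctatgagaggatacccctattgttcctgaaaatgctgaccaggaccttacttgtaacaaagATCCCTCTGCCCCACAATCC
Spp1, chr5:104434911-104435110, plus strand: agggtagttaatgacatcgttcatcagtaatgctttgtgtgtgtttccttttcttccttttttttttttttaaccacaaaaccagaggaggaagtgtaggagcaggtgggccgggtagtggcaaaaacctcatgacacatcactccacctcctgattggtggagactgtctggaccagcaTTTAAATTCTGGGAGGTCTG

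The Kdr promoter was G and C rich (65.5%, with 15 CpG pairs), the Tek promoter held 51.5% with 1 CpG pair and the Spp1 promoter 44.5% with 2, against medians of 57.5% and 9 over 19171 promoters. None of the same 6 motifs was found in these 3 runs, where 2.00% (FOXA) to 12.2% (CTCF) of all promoters held one. A further Spp1 promoter (chr5:104435992-104436191, plus strand) is not printed. It lies at the coding start next to the exonic Spp1 region described below, while the printed Spp1 run lies at the gene start. That promoter held 37.5% G and C, 3 CpG pairs and 1 match to the CTCF letters.

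The islet label was first set against hormone genes. Of 15 beta and endocrine genes, 13 had a region within 500 bases of a coding start that was called in all 16 samples, among them Ins1, Ins2, Gcg, Pdx1 and Nkx6-1. Sst and Ppy, the hormone genes of delta and PP cells, had none, and Sst had a peak in 1 sample. The lists held between 77887 peaks (AJ male) and 167051 peaks (WSB female) on chromosomes 1 to 19. The median summit signal over the 40940 regions called in every sample was lowest in the PWK male, at 32, and highest in the CAST male, at 136. Every signal below is scaled, that is, divided by this median of its own sample. A region without a called peak is entered as 0, which says only that it was not called at the depth of that sample. Read depth itself is not part of the peak lists. The gene signal is the sum of scaled signals over the regions of a gene. As each sample mixes cell types, fewer cells of a type and less open chromatin per cell cannot be told apart.

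Start sites of the duct and endothelial genes were rarely open in every sample. None of the 8 genes had a region within 500 bases of a coding start called in all 16 samples, where 52.6% of protein-coding genes did. Spp1 came closest with 15 samples, followed by Tek with 11, Kdr with 6 and Cdh5 with 5. For Spp1 this was an exonic region 1.65 kb into the gene, and for Cdh5 an intron region 9.32 kb into the gene, each near a further annotated coding start. Those of Sox9 and Krt19 were each called in 1 sample, the NZO male. Those of Pecam1 and Plvap were called in none. Among genes of the same cell types that were not in the set, 5 of 10 duct genes (Krt8, Epcam, Cftr, Muc1 and Prom1) and 2 of 12 endothelial genes (Esam and Cldn5) had such a region in every sample. The count was 1 of 9 acinar genes (Bhlha15), 0 of 8 leukocyte genes, 1 of 9 mesenchymal genes (Col1a2) and 0 of 12 genes of liver, muscle, retina, brain and skin.

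Levels between genes were compared per length, as mean gene signal per 10 kb over the 16 samples. Spp1 stood highest at 1.32 ± 0.276 (SD, n = 16), above 74.7% of protein-coding genes. Tek followed at 0.323 ± 0.155, Krt19 at 0.263 ± 0.443, Pecam1 at 0.208 ± 0.145, Plvap at 0.123 ± 0.141, Cdh5 at 0.103 ± 0.0801, Kdr at 0.0791 ± 0.0445 and Sox9 at 0.0612 ± 0.245. Only the step from Spp1 to Tek was larger than the SD of both genes, and the 6 other neighbours in this order did not differ beyond their spread over samples. The median per 10 kb was 0.263 for the 3 duct genes and 0.123 for the 5 endothelial genes, against 0.496 over all protein-coding genes and 3.34 over the beta and endocrine genes. The 10 other duct genes had a median of 0.852 and reached 1.74 in Muc1, a mucin of epithelial surfaces. The 12 other endothelial genes had a median of 0.293, from Eng and Tie1 with no peak in any sample to Esam (5.33), which codes for an endothelial adhesion molecule.

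**Figure D1:**
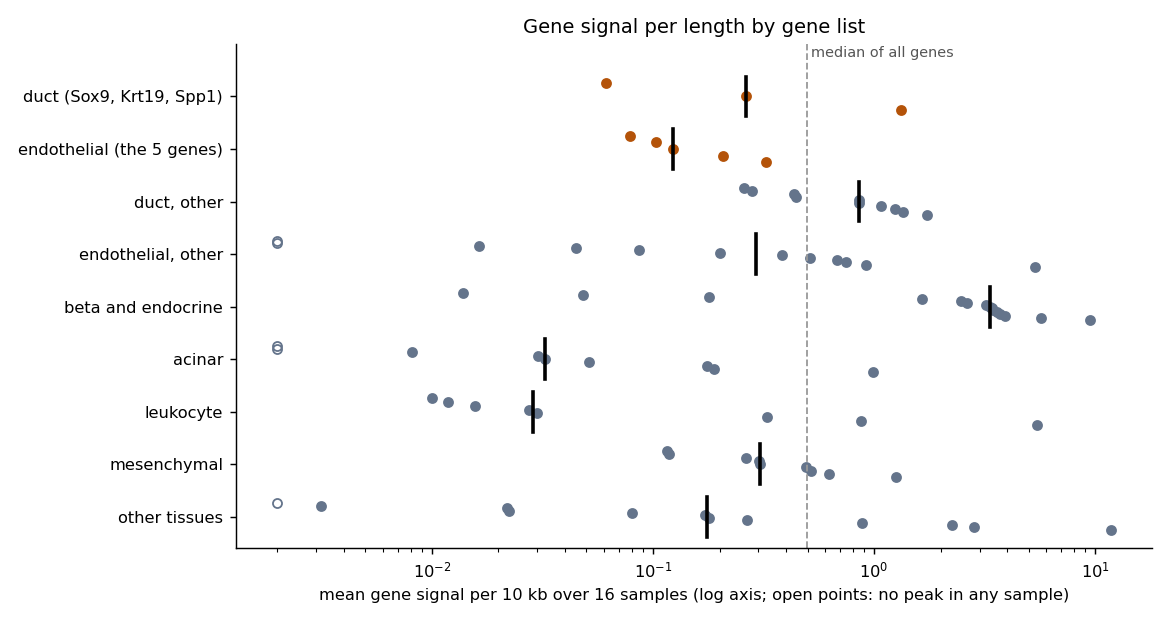
Mean gene signal per 10 kb over 16 samples (horizontal log axis) for each gene (point) of 9 lists, with the list median as a black bar, the median of all protein-coding genes (0.496) as a dashed line and genes with no peak as open points at the left edge. The 5 endothelial genes all lie left of the dashed line, and the duct genes lie on both sides of it, with Spp1 at 1.32.

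The other lists gave a reference for genes of cells that islets should hold in small numbers or not at all. The acinar list had a median of 0.0325 per 10 kb, from Cel and Ptf1a at 0 to Bhlha15 at 0.985. The leukocyte list had 0.0287, from Adgre1 at 0.0100 to Cd79a at 5.46. The mesenchymal list had 0.304, from Dcn at 0.116 to Acta2 at 1.26. The list of other tissues had 0.175, from Myh6 at 0 to Apoa2 at 11.8. The endothelial genes studied, with 0.123, had a lower median than these genes of other tissues. The gene signal counts every region in the window of a gene, and such a region can belong to a neighbouring gene. Apoa2, Ckm and Cd79a had signal in all 16 samples but a region near a coding start in 0 samples. Their levels are thus not signal at their start sites and do not show that these genes are in use.

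Sox9, the duct transcription factor, had 2 regions, both in the NZO male alone. One region covered the start site (chr11:112782042-112782358, scaled signal 0.655), and the other lay upstream (chr11:112781400-112781599, 0.182, also overlapping BC006965). Its gene signal was 0.836 in that sample and listed at 0 in the other 15, including the NZO female. The gene did not pass the filter of a peak in 8 samples and was not tested.

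Krt19, a keratin of duct epithelium, had 4 regions. The most often called lay 2.44 kb upstream (chr11:100150873-100151338), in 9 samples at 0.0602 to 0.509. The gene signal of Krt19 was 1.91 in the NZO male, 0.689 in the CAST female, 0.463 in the CAST male, 0.383 in the NZO female, 0.340 in the WSB female, 0.25 in the WSB male, 0.242 in the PWK female, 0.238 in the B6 female and 0.0602 in the B6 male. It was listed at 0 in both samples of 129, AJ and NOD and in the PWK male. The region at a Krt19 coding start (chr11:100145919-100146250) was called in the NZO male only, at 0.691.

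Spp1, which codes for osteopontin, varied least relative to its mean, with an SD of 20.9% of the mean against 48.1% to 400% in the other genes. Its gene signal ran from 0.622 (NOD male) through a median of 1.18 to 1.53 (PWK male). The NOD female had 0.884, so both NOD samples lay lowest, with the WSB female at 0.887 next. The upstream region (chr5:104432843-104433350) carried most of it, with a scaled signal of 0.758 ± 0.145 (SD, n = 16) between 0.507 (CAST male) and 1.04 (NZO female). It was also in the reproducible list of all 8 strains. An exonic region (chr5:104436247-104437290) was called in 15 samples at up to 0.509 and missed in the NOD male. The region at the annotated gene start (chr5:104435000-104435199) was called in 6 samples. The exonic region and this region also overlap Gm42793.

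Pecam1, an adhesion molecule of endothelial junctions, had 14 regions, of which 6 were called in 1 sample. Its intron region (chr11:106674225-106675645) lay 75.7 kb into the gene and had a scaled signal of 1.36 ± 0.568 (SD, n = 16). The values were 2.41 and 1.57 in 129 (female, then male), 0.800 and 0.673 in AJ, 1.64 and 0.904 in B6, 2.38 and 1.74 in CAST, 1.12 and 0.902 in NOD, 1.37 and 2.05 in NZO, 1.21 and 0.594 in PWK, and 1.104 and 1.23 in WSB. The female was higher in 6 of 8 strains. The gene signal added the weaker regions and reached 5.25 in the NZO male and 5.23 in the CAST female, against 3.15 in the CAST male and at most 2.66 in the other samples. Beside the Pecam1 start, 2 regions were called in the NZO male only and also fell in the window of Milr1, so they cannot be assigned to either gene.

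Tek, the angiopoietin receptor, had the strongest single region of the set. The intron region (chr4:94751779-94753420) lay 13.3 kb into the gene and overlapped no other gene. Its scaled signal was 1.91 and 2.72 in 129 (female, then male), 4.34 and 3.69 in AJ, 3.61 and 6.65 in B6, 0.538 and 0.654 in CAST, 3.90 and 4.18 in NOD, 3.88 and 3.27 in NZO, 2.903 and 2.56 in PWK, and 3.66 and 4.64 in WSB. Both CAST samples lay below the other 14 without overlap, and in those 14 the region stood above the median of the shared regions of the sample.

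Further Tek regions were missing from the same strain. The exonic region 88.2 kb into the gene (chr4:94827208-94827835) was called in both samples of 129, AJ, B6, NOD, NZO and WSB at 0.483 to 1.56 and in no sample of CAST or PWK. The region at the start site (chr4:94738234-94739309) was called in 11 samples at 0.151 to 0.415, and in neither sample of CAST or PWK nor in the NZO male. The gene signal of Tek was lowest in CAST (0.686 ± 0.0442, SD, n = 2), then PWK (2.905 ± 0.00214), 129 (3.23 ± 0.930), NZO (5.09 ± 0.870), NOD (5.46 ± 0.293), WSB (5.54 ± 0.618), AJ (5.80 ± 0.259) and B6 (7.11 ± 2.897). Apart from CAST below PWK and 129 below NZO, the neighbours in this order differed by less than the larger of their SDs. All reads were aligned to mm10, the reference of B6, and the part of sequence differences of CAST in these values was not tested.

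**Figure D2:**
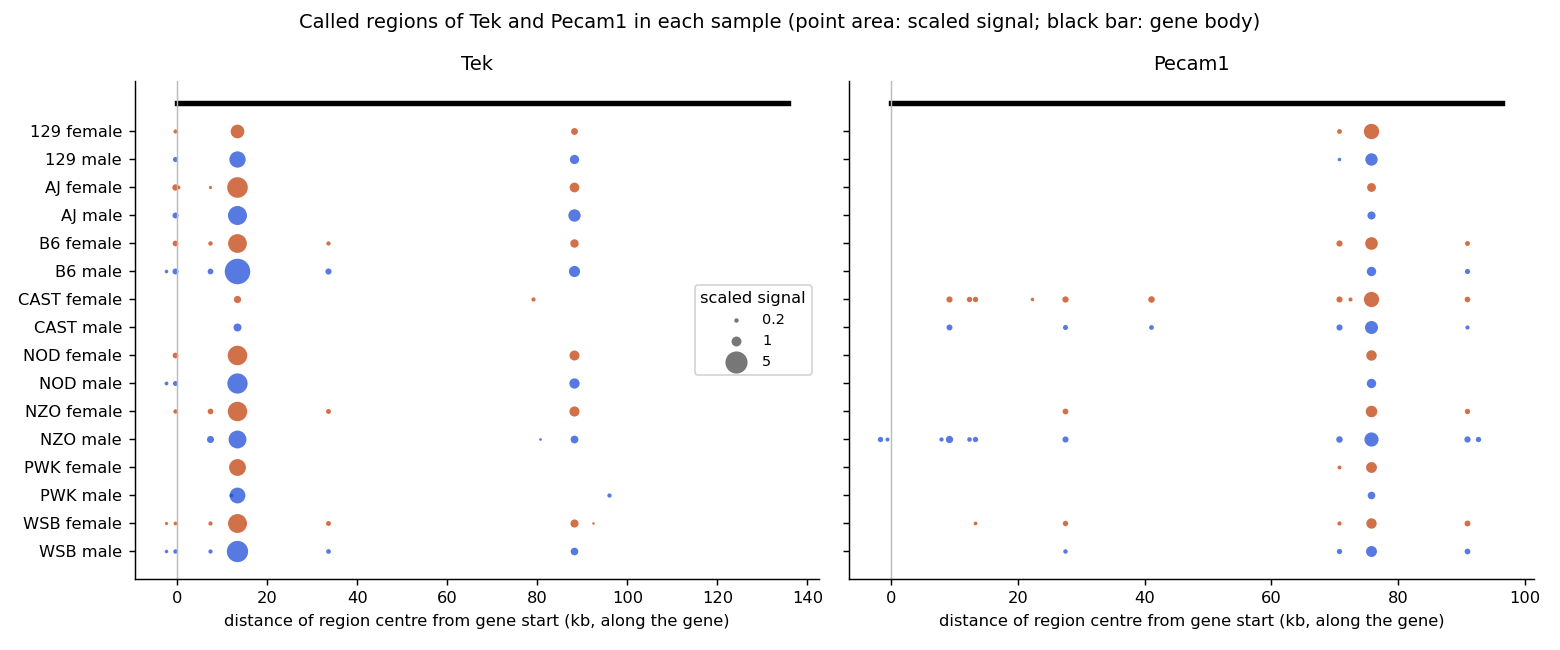
Called regions of Tek and Pecam1 by distance of the region centre from the gene start (horizontal, kb along the gene) in each of the 16 samples (rows), with point area proportional to scaled signal and the gene body as a black bar. The Tek region at 13.3 kb is large in every strain but CAST, the Tek region at 88.2 kb is absent in CAST and PWK, and the Pecam1 region at 75.7 kb is called in all 16 samples.

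Kdr, Cdh5 and Plvap had no region called in every sample. Kdr, the main VEGF receptor of endothelial cells, had an intron region (chr5:75975459-75975696) in 11 samples. Its start site (chr5:75977847-75978767) was called in both CAST samples at 0.330 and 0.25, both WSB samples at 0.255 and 0.25, the PWK female at 0.210 and the 129 male at 0.217. The Kdr gene signal ran from 0 in the AJ and PWK males through a median of 0.463 to 0.764 in the NZO male.

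Cdh5, which codes for VE-cadherin, was called most often 2.39 kb upstream (chr8:104099013-104099462, also overlapping Gm29682), in 11 samples at up to 0.5. Its gene signal ran from 0 in the 129 male and the AJ female through a median of 0.380 to 1.33 in the NZO male, with 0.864 in the NZO female next. Plvap had 1 region, at its 3′ end (chr8:71497434-71498196), which also overlaps Gtpbp3 and cannot be assigned to either gene. It was called in 8 samples: at 0.585 and 0.618 in CAST (female, then male), 0.481 and 0.473 in NZO, 0.393 and 0.325 in B6, 0.304 in the 129 male and 0.151 in the WSB female. No sample of AJ, NOD or PWK had it.

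**Figure D3:**
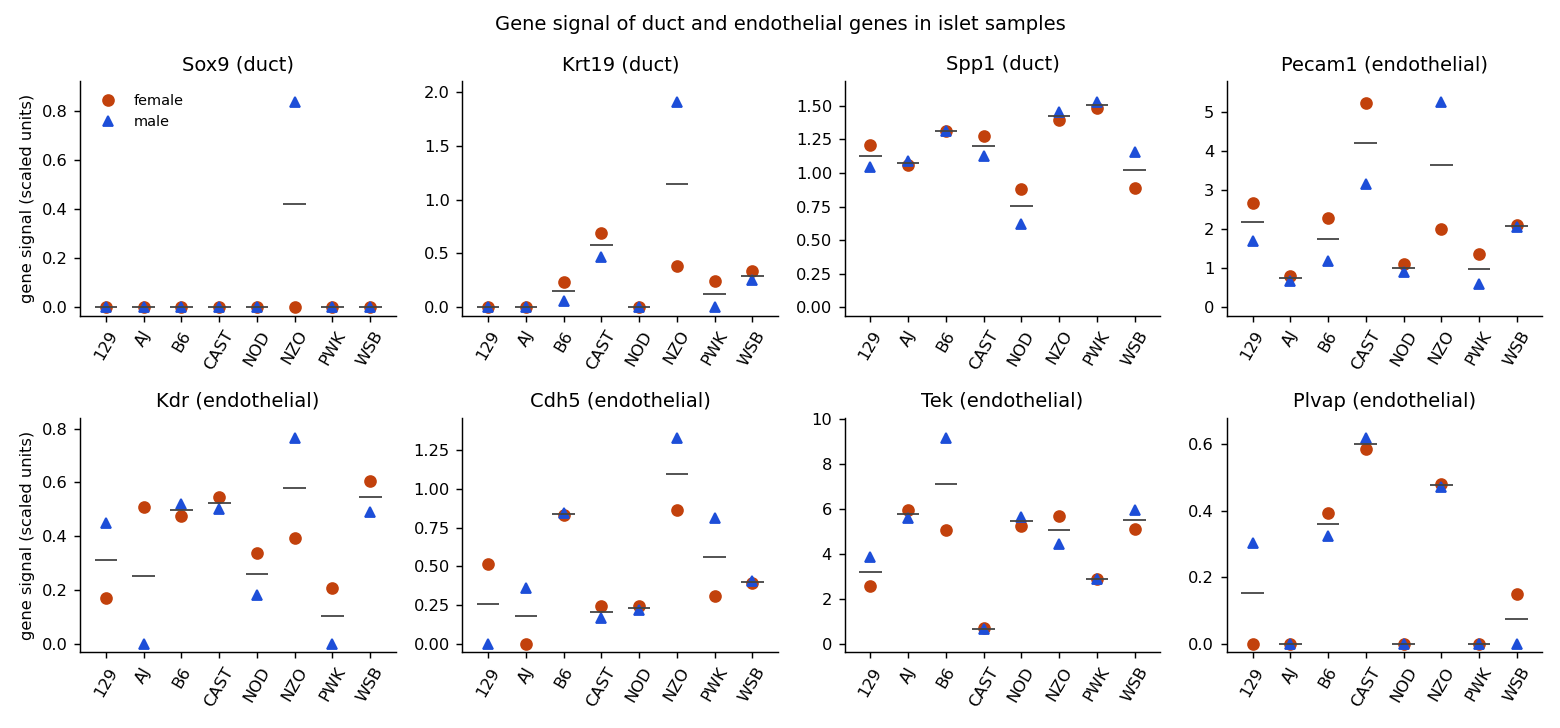
Gene signal (vertical, scaled units) of the 8 genes in each strain (horizontal), with the female as a circle, the male as a triangle and their mean as a line. The Sox9 signal of 0.836 is in the NZO male alone, and the Tek signal of CAST lies below all other strains.

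To ask whether strains differed, each region called in all 16 samples was fitted with limma as strain plus sex on the log2 scale (pseudocount 1), and p-values were adjusted over all 40940 regions by the Benjamini-Hochberg procedure. Of the 3 regions, 2 passed the threshold of 0.05, where 35.7% of all regions did. The Tek intron region had an adjusted p of 0.000179, with a range of 3.02 (log2) from B6, the highest strain, to CAST. The Pecam1 intron region had an adjusted p of 0.0219, with a range of 1.45 from CAST to AJ. The Spp1 upstream region had an adjusted p of 0.316 and a range of 0.67. Without both CAST samples, an alternative added after the data had been seen, Tek had an adjusted p of 0.125 and Pecam1 of 0.0837, so no call was left, and the share of all regions that passed was 15.8%. Pecam1 also lost its call when any 1 sample of AJ or CAST was left out (adjusted p from 0.0558 to 0.0703), and Tek kept its call when any 1 sample was left out.

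The same limma fit on gene signals (log2 of signal plus 0.25) took 15850 genes with a peak in at least 8 samples, and 29.1% of them passed for strain. Of the 8 genes, 7 entered and 4 passed: Tek (adjusted p = 0.000741, range 2.92 from B6 to CAST), Plvap (0.00940, range 1.77 from CAST to PWK), Pecam1 (0.0276, range 2.13 from CAST to AJ) and Krt19 (0.0318, range 2.23 from NZO to 129). These ranges are on the log2(signal + 0.25) scale, on which the change of low genes is understated. For Plvap both samples of AJ, NOD and PWK were entered at 0, and for Krt19 both samples of 129, AJ and NOD. Such pairs show no difference between their samples, so these 2 calls rest in part on called against not called. Spp1 (adjusted p = 0.0633), Cdh5 (0.108) and Kdr (0.208) did not pass. Krt19 lost its call without any 1 sample of 129, AJ, CAST, NOD or WSB, and Pecam1 without any 1 sample of AJ, CAST, NOD or WSB or without the PWK male. Krt19 also lost it with a pseudocount of 1 (adjusted p = 0.0551), and Plvap with a window of 10 kb upstream (0.0732). Plvap, called in just 8 samples, left the fit whenever 1 of those was left out. Without both CAST samples none of the 5 genes that could be fitted passed, with limma adjusted p of 0.0751 for Tek and 0.101 for Pecam1, and 10.3% of all genes did.

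In the other lists of these cell types, 2 of 10 duct genes (Krt7 and Cldn7) and 3 of the 8 endothelial genes that could be fitted (Vwf, Robo4 and Ece1) passed for strain. Krt7, a keratin of simple epithelia, was highest in NZO (limma adjusted p = 0.00105), and Vwf, the von Willebrand factor, was highest in AJ and lowest in CAST (0.0159). Vwf and Robo4 had a region near a coding start in 0 samples, so their signal is not at their start sites. The count that passed for strain was 3 of 13 beta and endocrine genes (Ins2, Iapp and Chga), 2 of 3 acinar genes, 1 of 4 leukocyte genes, 2 of 9 mesenchymal genes and 1 of 7 genes of other tissues.

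To ask whether the sexes differed, the sex term of the same limma fits was read. None of the 3 regions and none of the 7 genes passed, as 0% of all regions (0 of 40940, with 1621 at an unadjusted p under 0.05) and 0% of all genes (0 of 15850, with 672) passed. The largest of the 3 differences at single regions was that of Pecam1, with the male lower by 0.34 on the log2 scale (-0.34 ± 0.17, SE, 8 pairs, limma adjusted p = 0.999). Its gene signal was higher in the female in 7 of 8 strains, with a difference of -0.28 ± 0.22 and limma adjusted p = 0.998. The exception was NZO, and the difference was -0.50 without the NZO female or the NZO male and -0.19 or -0.18 without the PWK female or male.

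To ask whether wild-derived strains differed from classical strains, limma was run on the 8 strain means. Of all regions 0.0342% (14 of 40940, of which the wild-derived strains were higher in 3 and lower in 11) passed, and of all genes 0.0126% (2 of 15850). None of the 3 regions or 7 genes was among them. The Tek intron region differed by -0.95 ± 0.50 (log2, SE, limma adjusted p = 0.489), with CAST the lowest strain, PWK above 129, and WSB above every classical strain but B6. Without both CAST samples the difference was -0.13. The Tek gene signal differed by -1.06 ± 0.51 (limma adjusted p = 0.641), and by -0.34 without both CAST samples.

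One sample stood apart on these genes. The NZO male called 30 of the 46 regions (65.2%) where it called 37.9% of all regions. The other samples called 7 (AJ male) to 23 (WSB female) of the 46. In PWK, 9 of 46 were called in each sample (19.6%), against 32.3% of all regions in the female and 39.0% in the male. Of the 46 regions, 19 were called in 1 sample (41.3%, against 46.4% of all regions). That sample was the NZO male for 10 of the 19, against 20.5% of the regions called in 1 sample over all regions. These 10 are in the set of 46 only through the peaks of the NZO male, so they raise its 65.2%. Regions called in it alone raise its 37.9% in the same way.

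**Figure D4:**
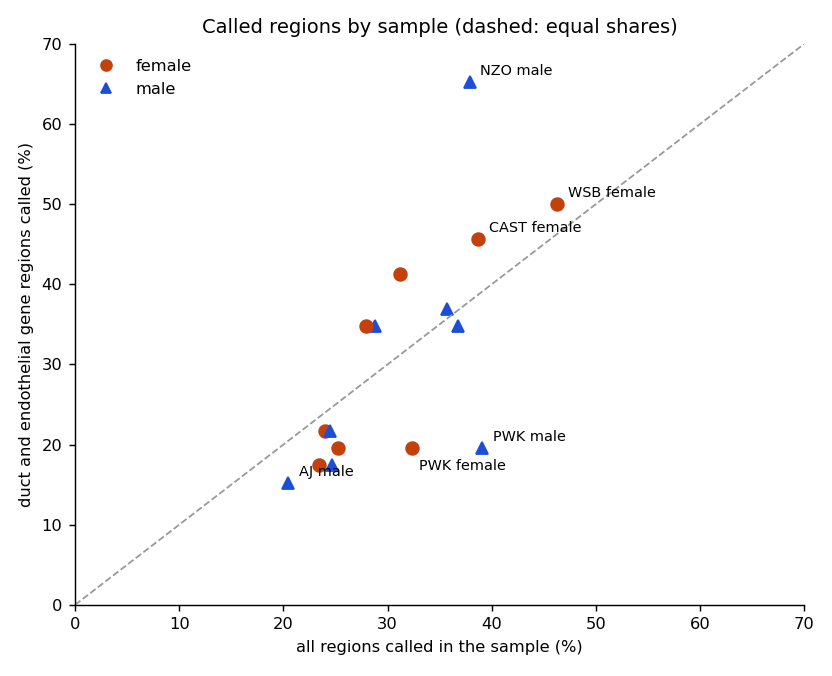
Share of all regions called in a sample (horizontal, %) and share of the 46 duct and endothelial gene regions called (vertical, %), 1 point per sample (circle female, triangle male), with equal shares dashed. The NZO male lies far above the line at 65.2% and both PWK samples lie below it at 19.6%.

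The NZO male had the highest gene signal in 5 of the 8 genes (Sox9, Krt19, Pecam1, Kdr and Cdh5), where it was the highest sample for 36.8% of the 18757 genes with any signal. The count fell to 2 of 8 under the stricter peak threshold (37.3% of all genes) and to 3 with equal numbers of peaks per sample (31.7%). It fell to 2 when each sample was centred on its median gene (16.3%). Without regions that reach the start sites of other genes it was 4 (34.9%). That setting took away the 2 regions shared with Milr1, which left Pecam1 highest in the CAST female. These alternatives were applied to this count after it had been seen. Summed over the 3 duct genes, the signal was 4.20 in the NZO male and 0.622 to 1.96 in the other 15 samples. Sox9, called in the NZO male alone, gave 0.836 of the 4.20. These sums and those below were not centred on the median gene. How often this sample leads by as much in other sets of genes was not tested. Summed over the 5 endothelial genes it was 12.3 in the NZO male, 12.0 in the B6 male, where Tek made up 9.16, and 4.31 to 9.46 in the others. The NZO female had 1.78 and 9.46.

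The lists of other cell types were summed in the same way, over all their genes. The 10 other duct genes summed to 33.1 in the NZO male and 14.6 to 23.3 in the others, and 5 of the 10 were highest there, among them Krt7, Krt8, Krt18 and Cftr. Krt8, a keratin of simple epithelia, was at 3.40 there and at most at 2.47 elsewhere. The 9 acinar genes summed to 4.64 against 0.817 to 2.65, with 4 of the 7 that had a peak highest there and Cel and Ptf1a at 0 in every sample. The 8 leukocyte genes summed to 15.5 against 6.75 to 13.0, with 5 of 8 highest there, and Itgam, Lyz2 and Laptm5 were called in this sample alone. These 3 are thus highest there by construction. Of all 927 genes with signal in 1 sample, 33.3% had it in the NZO male. Of the other endothelial genes with a peak, 3 of 10 were highest there, with Erg, an endothelial ETS factor, at 2.55 against at most 0.887 and Flt1, a VEGF receptor, at 2.76 against at most 0.857. That share is below the 36.8% of all genes, and Emcn (1.16) and Ptprb (3.11) were at their lowest of all 16 samples there. Summed over all 12 other endothelial genes, the signal was 38.1 in the NZO male, the highest of all samples (28.3 to 33.5 in the others). Erg, Flt1 and Emcn had a region near a coding start in 0 samples, so their signal is not at their start sites. Eng and Tie1 were at 0 in every sample. The 15 beta and endocrine genes summed to 44.9 in the NZO male, the lowest of all samples (50.3 to 65.6 in the others), although 3 of the 15 (Nkx6-1, Mafa and Ppy) were highest there. The 9 mesenchymal genes gave 13.1, inside the range of 9.33 to 14.7 of the others, with 2 of 9 highest in the NZO male. The 12 genes of other tissues gave 19.3, inside the range of 15.2 to 21.2 of the others. The part of these lists in the signal of the 8 genes was not tested.

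**Figure D5:**
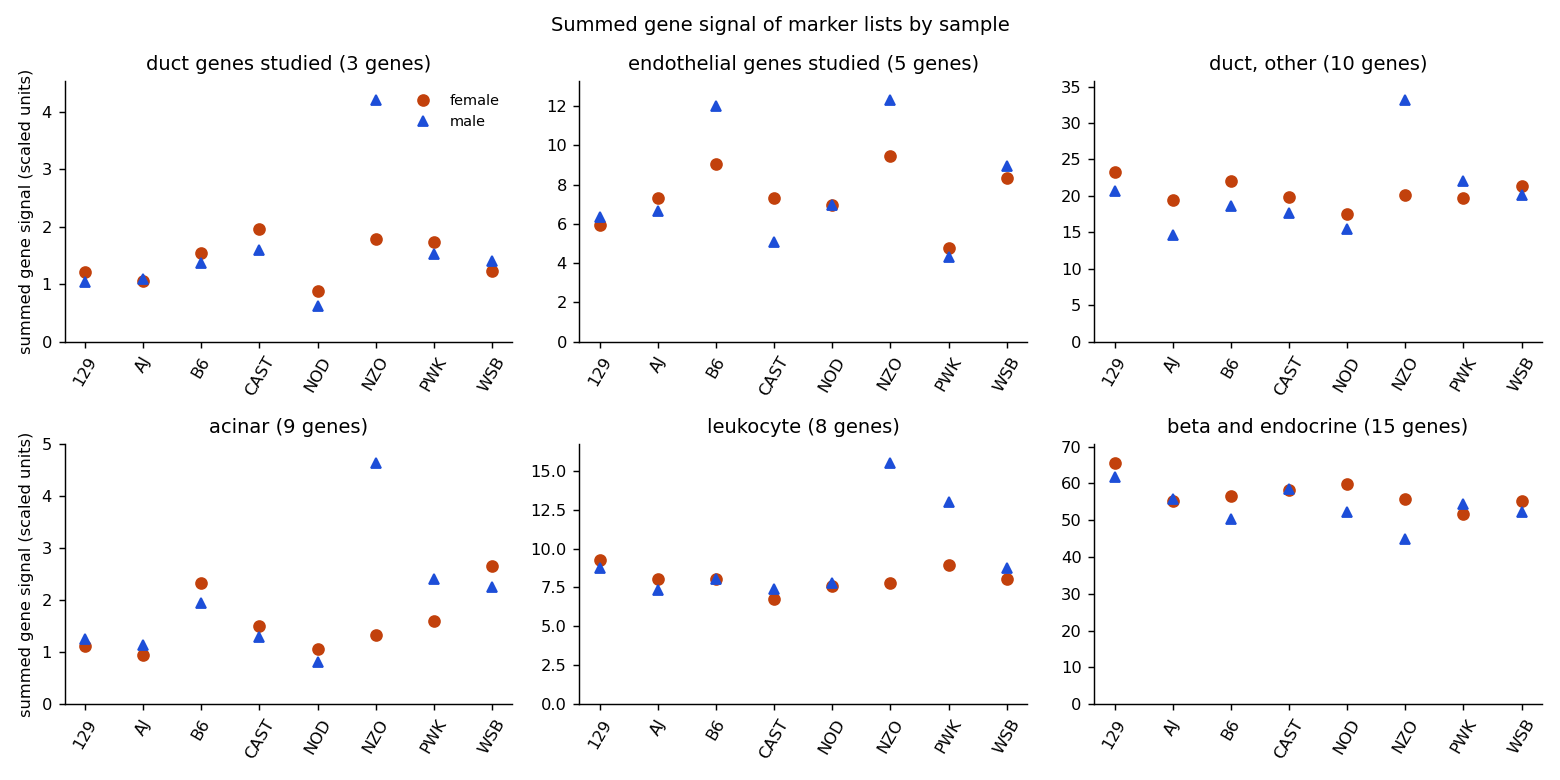
Summed gene signal (vertical, scaled units, axis from 0) of 6 marker lists in each strain (horizontal; circle female, triangle male). The NZO male is the highest sample in the duct, acinar and leukocyte lists (4.20, 33.1, 4.64 and 15.5) and the lowest in the beta and endocrine list (44.9). It is also the highest for the 5 endothelial genes studied, at 12.3 against 12.0 in the B6 male.

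Without the NZO samples the strain result of the regions was as before. With both left out (chosen after the data had been seen), 2 of the 3 regions and 3 of the 5 genes that could be fitted (Tek, Pecam1 and Spp1) passed for strain in limma, as did 49.3% of all regions and 59.3% of all genes. Spp1, which had not passed with all samples, then had an adjusted p of 0.0415.

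Genes whose gene signal followed each of these genes most closely over the 16 samples were listed by Pearson's r, as a description and with no test, since the points share strain, depth and scaling. For Tek they were Aqp4 (0.946), Itih2 (0.945) and Rab38 (0.942). For Pecam1 they were Msi2 (0.980), Man1c1 (0.978) and Tnrc6c (0.969). For Krt19 they were Habp2 (0.961), Tinagl1 (0.938) and Adtrp (0.937), for Spp1 Ccr4 (0.893), Mpzl1 (0.858) and Ccnd1 (0.835). For Kdr they were Pde9a (0.897), Ebf1 (0.883) and Rab17 (0.882), for Cdh5 Rell2 (0.794), Gm9999 (0.771) and Gm4924 (0.765), and for Plvap Slc13a3 (0.861), Aunip (0.851) and Bcl2a1a (0.841). No gene of the duct and endothelial lists was among them. Just 3 genes were listed for each, of 15849 compared (15848 for Plvap), so this absence says little about those lists.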

How the data were processed

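Islet ATAC-seq reads were trimmed with cutadapt (version 2.0), aligned to mm10 with Bowtie2 (2.3.4.1) and cleared of duplicates with Picard (2.9.2), per the labels. The authors called peaks in each sample with MOSAiCS at an FDR of 0.05. The deposited sample lists give a whole-number summit signal, a second score column and −log10 p-values, none of them normalized to depth, and the deposited strain lists give peaks reproducible between the sexes, by their −log10 IDR. Every peak lay within the length of its chromosome in GRCm38.

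Here, peaks on chromosomes 1 to 19 were merged, and the highest summit signal of a region in a sample was divided by the median of that sample over regions called in all 16. Gene bodies came from GENCODE M21. limma (3.58.1, R 4.3.3) was fitted over all features, for regions on log2(signal + 1) centred per sample and for genes on log2(signal + 0.25), as strain plus sex or as class on 8 strain means, after a test on simulated data. Python (3.11.15) was used for the rest. P-values for strain and sex measure the spread between 2 samples of a strain that differ in sex, beyond the mean sex difference. P-values for class measure the spread between the strain means within a class. The genes and lists were chosen with earlier results of these data known. All 8 genes were described, with regions at the start, regions in every sample and the strongest region; of other lists the highest and lowest gene per length and genes that counts rest on. Some values of listed genes are not reported here. Amy2b of the acinar list was not found among protein-coding genes. The other choices tried were the pseudocount, the score column, a stricter p-value (keeping 0.5 of each list), the 60000 strongest peaks, covering at least 0.5 of a region, centring and quantile normalization, filters, gene windows (start sites, 10 kb upstream, no other start sites), strain alone and leaving out each sample.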

Additional observations from a re-analysis of the deposited data

Results flagged for a closer look

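Values of the 8 genes and the 3 regions called in every sample were compared over the 8 females and the 8 males separately. Sox9 was at 0 in all females, which left 21 groups. Chance alone marks about 1 in 20 groups of continuous values, a rate that does not hold where several values are at 0. In 3 of them the highest sample lay far from the rest. The Sox9 gene signal of the NZO male was 0.836, with the other 7 males at 0, so the gap is the whole range by construction. The Krt19 gene signal of the NZO male was 1.91, with the next male at 0.463. The Pecam1 gene signal of the CAST female was 5.23, with the next female at 2.66. The cause was not tested.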

How the results depend on the processing

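The number of the 3 regions that passed for strain was 2 in 20 of the 26 alternatives that gave a value. It ranged from 1 to 2 when 1 sample was left out, was 0 without both CAST samples, and was 5 of 12 when regions called in at least 8 samples were taken. With at least 0.5 of a region covered by peaks, no region of these genes was called in every sample, so none could be tested. The number of genes that passed for strain was 4, and ranged from 1 to 4 when 1 sample was left out. It was 1 of 3 under the stricter threshold, 2 of 3 with equal numbers of peaks, 0 of 5 with covered regions only, 2 of 5 from start sites only and 0 of 5 without both CAST samples. Among single results, the Pecam1 region lost its call when regions called in at least 8 samples were fitted (adjusted p = 0.105), the Pecam1 gene under the stricter threshold (0.0585) and the Tek gene with covered regions only (0.0738). The Cdh5 gene passed without either 129 sample (0.0236 and 0.0366), and the Spp1 gene without either NZO sample (0.0339 and 0.0469) and with strain alone (0.0495). For the lower counts the cause was not tested, beyond the fewer genes that entered. Of these genes and their regions, none passed for sex or class under any alternative. The Tek class difference and the Pecam1 sex difference kept their signs in all of theirs, with Tek at -1.15 to -0.34 for the gene and -1.04 to -0.13 for the region, and Pecam1 at -0.50 to -0.11 for the gene and -0.53 to -0.19 for the region. The number of regions at these genes, 46, was 23 under the stricter threshold and 24 with equal numbers of peaks, with 3 called in every sample in both, so the weaker peaks limit how many regions are seen. The sex term was fitted with strain in the model, which pairs the samples of a strain.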
